A study of Mus musculus with 12 samples.

Results

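The serpins are a family of protease inhibitors, and every probe of the array whose gene name begins with Serpin was taken, whatever its values. These were 73 probes for 54 gene names, of 41174 probes and 27670 names on the array. The members were therefore picked by name, but the family was proposed with earlier results of these data known, so counts over it are descriptions and carry no test of their own. The study depleted the catalytic subunits of the Tip60-p400 chromatin remodelling and histone acetyltransferase complex in mouse E14 embryonic stem cells with esiRNA, which is a pool of short RNAs cut from a long double-stranded RNA. Cells received esiRNA against p400 (gene Ep400), against Tip60 (gene Kat5) or, as control in both experiments, against EGFP, a jellyfish protein that mouse cells do not encode. Every group was 72 hr at 0.33 ng/µl esiRNA by lipofection, in 1 well of a dish per sample, so the EGFP cells also carried transfected RNA. p400 knockdown RNA was hybridised against EGFP RNA on 4 2-colour arrays with dyes swapped on 2 of them, and Tip60 knockdown (4 samples) and EGFP (4 samples) RNA on single-colour arrays. The design text calls the replicates biological and states that Tip60 replicate 3 was left out as an intensity outlier, so Tip60 comparisons here rest on replicates 1, 2 and 4. Whether the EGFP RNA of both experiments came from the same cultures is not stated in the sources used here.

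A serpin presents an exposed loop as bait. When a serine protease, or in some members a cysteine protease, cuts the loop, the serpin changes shape and traps its attacker in a dead complex. Each molecule therefore works once. Clade A members such as antitrypsin are mostly secreted by liver, clade B members stay inside the cell and guard it against leaked lysosomal and granule proteases, and Serpinh1 (also called Hsp47) inhibits nothing and instead escorts procollagen through the endoplasmic reticulum. In mouse, clades A and B have expanded into rows of near copies on single chromosomes.

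The knockdowns themselves were seen on the arrays. The log2 ratio of Ep400 in p400 knockdown over EGFP was -0.65, -0.77, -0.24 and -0.67 on arrays 1 to 4, below 0 on every array (fit -0.58 ± 0.09 SE, limma adjusted p = 0.00556). Kat5 lay at -0.19, -0.30 and -0.27 in Tip60 knockdown RNA (0.04 in the left-out replicate 3), against 1.16, 1.15, 1.22 and 1.39 in EGFP RNA, in log2 units relative to the array's 75th percentile, the level scale used for the single-colour arrays throughout. Kat5 was also lower in p400 knockdown (-0.43 ± 0.08, adjusted p = 0.0109), while Ep400 was not called in Tip60 knockdown (0.17, adjusted p = 0.0901). Of the stem cell genes, Pou5f1 (fits 0.04 and 0.06) and Nanog (fits 0.11 and 0.00) were called in neither knockdown, Zfp42 was not called either (fits 0.22 and -0.03), and Sox2 was lower in both (fits -0.21 and -0.21, adjusted p = 0.0479 and 0.0197 in p400 and Tip60 knockdown). Between 27598 and 30752 spots per channel were well above background on the 2-colour arrays and between 25073 and 30107 on the single-colour arrays used, with 22188 on Tip60 replicate 3. In bulk RNA a change in the share of cells that express a gene and a change in RNA per cell cannot be told apart.

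The sequences that carry the result are those of the clade B row on chromosome 13, where most of the rises lay, together with Serpine2, which was called lower in Tip60 knockdown. They are the 60-base array probes as deposited, 5′ to 3′, in lower case because no part of them is marked. The file headers place them on mouse build mm7. Serpinb1a was read at chr13:32208400-32208459 (minus strand), Serpinb1b at chr13:32456903-32456962 (plus strand), Serpinb6c at chr13:33298268-33298326 (minus strand) and Serpine2 at chr1:80011225-80013842 (minus strand). Serpinb1c had a probe at chr13:32249890-32251739 and a second at chr13:32249545-32249780, both on the minus strand. The Serpinb1c and Serpine2 spans are longer than the probe, so these matches are split over the genome. The deposited annotation lists 1 RefSeq gene for each of these probes.
Serpinb1a: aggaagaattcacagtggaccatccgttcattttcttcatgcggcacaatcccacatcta
Serpinb1b: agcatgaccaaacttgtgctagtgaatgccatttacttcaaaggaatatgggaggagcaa
Serpinb1c, brighter probe: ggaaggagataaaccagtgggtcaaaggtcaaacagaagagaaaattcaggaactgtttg
Serpinb1c, second probe: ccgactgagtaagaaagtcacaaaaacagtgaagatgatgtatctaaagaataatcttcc
Serpinb6c: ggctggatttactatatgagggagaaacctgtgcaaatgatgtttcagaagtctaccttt
Serpine2: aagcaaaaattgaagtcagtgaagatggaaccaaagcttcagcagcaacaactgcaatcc
The 3 Serpinb1 genes are close relatives, and their probes differ in sequence from each other. Probes were compared with other Serpin probes only, not with the transcripts of related genes, so binding to a relative's RNA was not tested. The longest stretch of exact bases that any of the 6 probes shares with a probe of another Serpin gene is 13 bases, between Serpinb1b and Serpinc1. Over all members, only the Serpinb9d and Serpinb9g probes share a run of 15 bases between different genes. A few clade A and B probes are listed for several near copies (those of Serpina1d and Serpina1e, the 2nd probe of Serpinb3c, and those of Serpinb3b and Serpinb9g), so they cannot be assigned to 1 copy.

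Promoters are shown for 3 risen chromosome 13 genes and for Serpinh1, the member that was lower in both knockdowns, from RefSeq on GRCm38.p6, each 250 bases before to 50 after the start. Capitals mark the motifs found of those searched on both strands, which were the TATA box (TATAAA), the CCAAT box, the GC box (GGGCGG), the Myc E-box (CACGTG), the AP-1 site (TGACTCA) and the heat shock element. None of the motifs found in these promoters overlap.
Serpinb1b, chr13:33083853-33084152, plus strand: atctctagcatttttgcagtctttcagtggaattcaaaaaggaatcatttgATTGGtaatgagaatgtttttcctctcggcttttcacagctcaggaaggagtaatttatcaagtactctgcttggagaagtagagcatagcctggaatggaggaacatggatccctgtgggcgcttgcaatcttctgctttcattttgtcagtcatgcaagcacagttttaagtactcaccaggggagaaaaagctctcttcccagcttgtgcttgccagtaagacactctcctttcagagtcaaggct
Serpinb1c, chr13:32898091-32898390, minus strand: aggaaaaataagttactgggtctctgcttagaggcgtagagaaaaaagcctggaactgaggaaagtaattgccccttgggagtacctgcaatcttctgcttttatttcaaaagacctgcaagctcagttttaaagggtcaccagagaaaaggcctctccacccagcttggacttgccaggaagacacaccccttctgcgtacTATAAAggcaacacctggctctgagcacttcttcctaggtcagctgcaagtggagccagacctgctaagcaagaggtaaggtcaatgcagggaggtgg
Serpinb6b, chr13:32965011-32965310, plus strand: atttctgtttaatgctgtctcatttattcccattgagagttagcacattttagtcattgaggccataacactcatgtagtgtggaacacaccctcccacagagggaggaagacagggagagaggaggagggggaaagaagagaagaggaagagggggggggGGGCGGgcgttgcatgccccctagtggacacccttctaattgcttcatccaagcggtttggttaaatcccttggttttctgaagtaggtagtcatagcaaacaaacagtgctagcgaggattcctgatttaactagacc
Serpinh1, chr7:99353190-99353489, minus strand: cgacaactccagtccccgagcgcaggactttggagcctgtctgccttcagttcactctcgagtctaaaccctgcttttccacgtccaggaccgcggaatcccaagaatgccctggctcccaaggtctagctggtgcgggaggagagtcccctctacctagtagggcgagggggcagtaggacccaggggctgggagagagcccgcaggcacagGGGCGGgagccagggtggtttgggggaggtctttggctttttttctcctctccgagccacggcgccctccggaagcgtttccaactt
Serpinb1b holds a CCAAT box 199 bases before the start, Serpinb1c a TATA box 48 before, Serpinb6b a GC box 89 before and Serpinh1 a GC box 37 before. A second RefSeq start of Serpinb1c holds none of the 6 motifs. Among 63 Serpin promoters in the table, 18 hold TATAAA, 21 CCAAT, 8 GGGCGG, 6 TGACTCA, 0 CACGTG and 0 the heat shock element. Over all 32851 promoters of that length the shares are 13.62% for TATAAA, 37.41% for CCAAT, 35.66% for GGGCGG, 5.2% for TGACTCA, 7.15% for CACGTG and 0.6% for the heat shock element. The Serpinb1b and Serpinb1c promoters share an exact run of 16 bases, starting 74 and 164 bases before their starts, where the median over 1318 pairs of promoters of different Serpin genes on the array is 8 bases. Such a run is not particular to the risen genes. The promoters of the near copies Serpinb3b (not tested) and Serpinb3c (called in neither knockdown) share a longer one. Promoters of Serpin genes on the array are poor in CpG, with a median of 3.5 CpG in 300 bases (52 promoters) against 7 over all promoters. Of 54 names, 44 had a RefSeq promoter. Serpinh1 (16 CpG) and Serpine2 (41 CpG) lay above both medians. So did members that were not lower, such as Serpinb6a at a second RefSeq start (25 CpG, called in neither knockdown) and Serpina3a (11 CpG, not tested).

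Most Serpin probes were well above background in only some channels or in none. Of 73 probes, 31 were well above background in none of 16 channels (8 channels of the 2-colour arrays and 8 single-colour arrays), 12 were so in all 16, and 30 in some. No probe was saturated. A channel had between 16 and 29 lit Serpin probes, the lowest on Tip60 replicate 3. By group, 24, 22, 28 and 29 probes were lit in p400 knockdown RNA, against 24, 26, 21 and 29 in EGFP RNA of the same arrays. On the single-colour arrays 28, 19, 16 and 22 were lit in Tip60 knockdown RNA (replicates 1 to 4), against 20, 17, 20 and 17 in EGFP RNA. The groups overlap in both experiments.

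**Figure D1:**
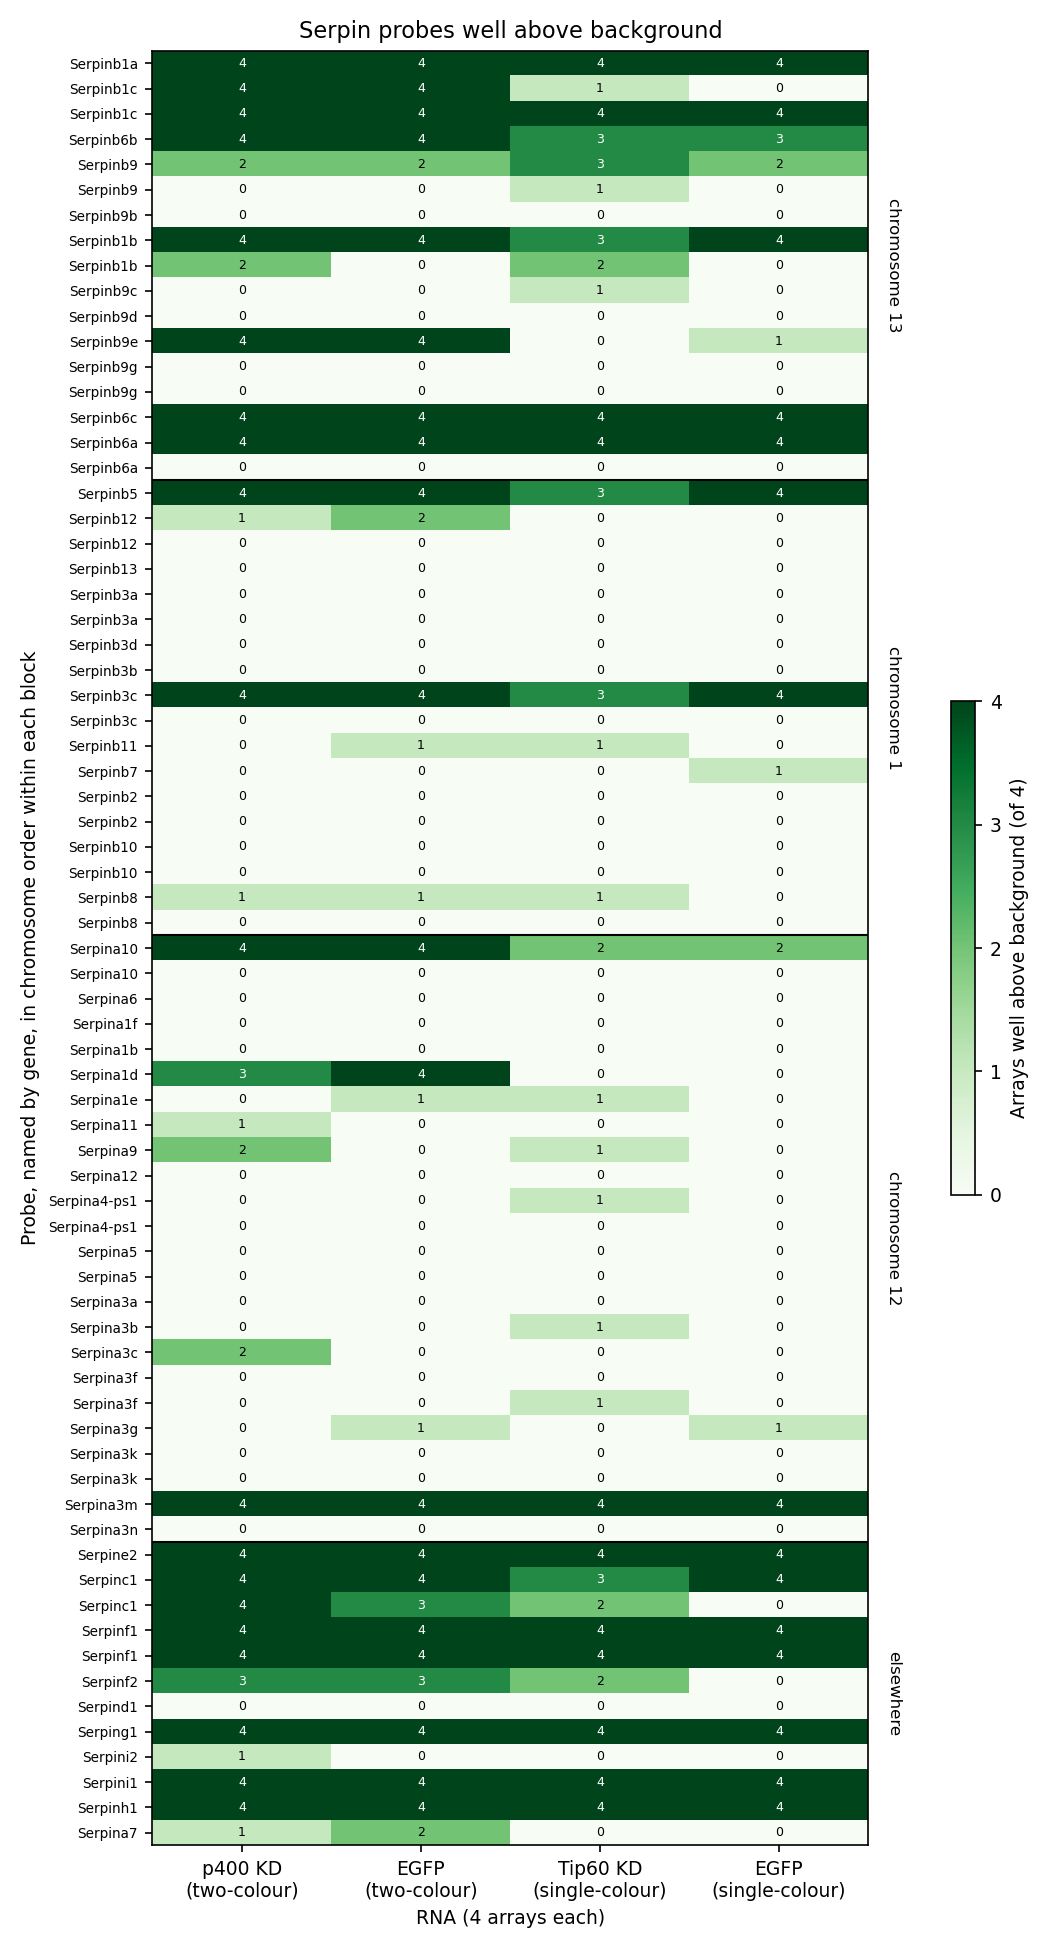
Number of arrays, of 4 per RNA, on which each Serpin probe reported here (rows, in chromosome order within the blocks for chromosomes 13, 1 and 12 and the rest) was well above background, for p400 knockdown and EGFP RNA on 2-colour arrays and Tip60 knockdown and EGFP RNA on single-colour arrays. The chromosome 13 block and the single genes outside the clusters hold most lit probes, while the chromosome 1 and 12 blocks are largely at 0.

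To be tested, a probe had to be lit (well above background) on 3 or more arrays in knockdown or in EGFP RNA, and where a gene had several such probes the brightest stood for it. By this criterion 20 Serpin genes could be tested after p400 knockdown and 17 after Tip60 knockdown, 16 of them after both, and 33 of 54 names in neither. No member entered the p400 fit through knockdown RNA alone, and 1, Serpinb9, entered the Tip60 fit that way. The 18 names with no lit probe anywhere include Serpinb2 (an inhibitor of plasminogen activators), Serpinb13, Serpina6 (the carrier of corticosteroids) and Serpind1 (heparin cofactor II), along with several of the Serpina3, Serpinb3 and Serpinb9 copies. For these 18 names only low signal was measured, not absence.

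In p400 knockdown cells, 6 Serpin genes were higher and 1 was lower. Serpinb1a and Serpina3m stood highest, with Serpinb1c, Serpinb6b, Serpinb1b and Serpinb5 behind, and Serpinh1 was the fall. In all, 7 of 20 tested members were called, 35%, where 35.2% of the 18691 genes tested were called (20.1% higher, 15% lower). The share is that of the background and is no result about the family. The median log2 fold change was 0.09 over the 20 members and 0.01 over all genes. Called means a limma adjusted p under 0.05 over all genes tested, two-sided; 10 of 20 had an unadjusted p under 0.05.

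The clade B neighbours on chromosome 13 are the core of the rise. Serpinb1a, the mouse counterpart of the human inhibitor of neutrophil elastase and cathepsin G, had log2 ratios of 0.62, 0.81, 1.06 and 0.73 on arrays 1 to 4. All 4 arrays put p400 knockdown above EGFP, and array 3 was highest (fit 0.80 ± 0.09 SE, 1.75-fold, adjusted p = 0.0025). Its paralogue Serpinb1c had ratios of 0.32, 0.58, 0.43 and 0.37 at its brighter probe, higher on all 4 arrays (0.42 ± 0.07, adjusted p = 0.0078). Its second probe gave 0.11, 0.11, -0.15 and 0.02, with both signs, and was not called (0.02, adjusted p = 0.831), so the rise was measured at 1 of 2 probes. Serpinb1b had ratios of 0.42, 0.45, 0.46 and 0.16, also all higher, with array 4 apart (0.37 ± 0.08, adjusted p = 0.0134). Serpinb6b, a paralogue of Serpinb6a, which inhibits cathepsin G, had ratios of 0.36, 0.56, 0.48 and 0.21 (0.40 ± 0.08, adjusted p = 0.0139). Again every array lay above 0.

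Outside that row, Serpina3m, a copy of the antichymotrypsin-like Serpina3 genes on chromosome 12, had ratios of 0.74, 0.71, 0.83 and 0.35, higher on all arrays (0.66 ± 0.08, 1.58-fold, adjusted p = 0.0033). It was 1 of 3 members of its 19-gene cluster that could be tested. Serpinb5, known as maspin and of disputed inhibitory activity, gave 0.42, 0.17, 0.23 and 0.16 in the chromosome 1 cluster (0.24 ± 0.07, adjusted p = 0.0374). Array 1 was highest and the others lay within 0.16 and 0.23. Serpinh1, the collagen chaperone, had ratios of -0.75, -0.44, -0.53 and 0.04, so p400 knockdown was lower on 3 of 4 arrays and level with EGFP on array 4 (-0.42 ± 0.10, adjusted p = 0.0210). Leaving out array 1 or array 2 ended this call (-0.36 and -0.30, adjusted p = 0.0702 and 0.0996). Leaving out array 2 left 2 of 20 members called, Serpina3m (0.57) and Serpinb1a (0.78), with 16.9% of all genes called, and the other 5 then missed the threshold (adjusted p up to 0.163). Serpinb5 also lost its call without array 1 (0.20) or 4 (0.25), and Serpinb6b without array 3 (0.37). Sizes moved with the processing. The deposited LogRatio gave 1.06 for Serpina3m, 1.06 for Serpinb6b and 0.80 for Serpinb5, all still called. Centring arrays on medians gave 0.52 for Serpinb1a and -0.73 for Serpinh1, both still called. Scaling arrays to a common spread, however, ended the calls of Serpinb1a, Serpinb5 and Serpinh1.

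The other 13 genes tested were not called in p400 knockdown. Serpini1 (neuroserpin, which restrains tissue plasminogen activator) had 0.15, 0.36, 0.39 and 0.08 (0.25 ± 0.08, adjusted p = 0.0600). With no background correction and with series matrix values it was called. Serping1, the C1 inhibitor of complement and contact proteases, had -0.15, -0.25, -0.13 and -0.14, below 0 on all 4 arrays, at adjusted p = 0.0915. With arrays centred on medians and with the deposited LogRatio it was called. Serpine2 (protease nexin 1, an inhibitor of thrombin and urokinase) had both signs, at -0.32, 0.42, 0.48 and -0.02. The fitted values of the rest ran from -0.01 to 0.12: Serpinb6a, Serpinf1 (pigment epithelium-derived factor), Serpinb3c, Serpinf2 (alpha-2-antiplasmin), Serpinb6c, Serpinb9e, Serpinc1 (antithrombin), Serpina1d (an antitrypsin copy) and Serpina10 (the protein Z-dependent inhibitor). Serpinc1 and Serpinf1 each had 2 tested probes, none of them called.

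**Figure D2:**
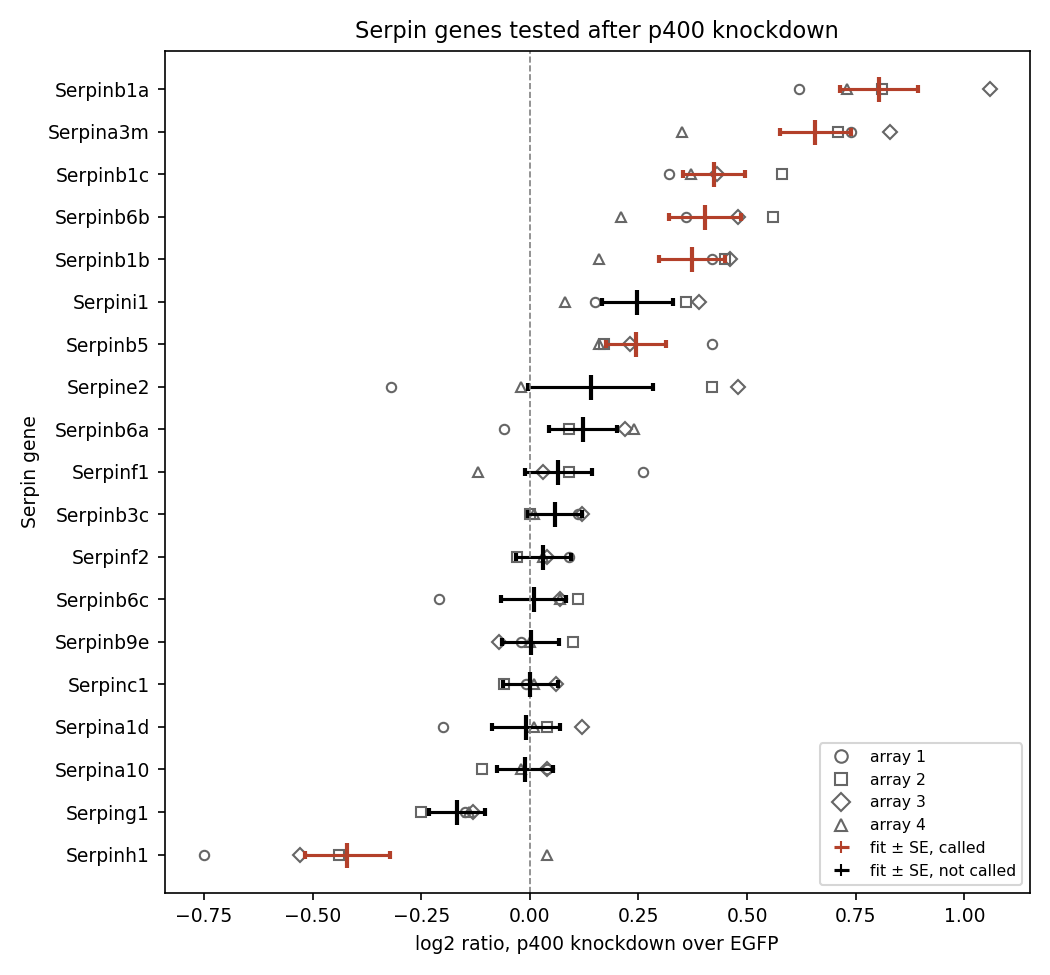
Log2 ratio of p400 knockdown over EGFP (x axis) for the Serpin genes tested and reported here (rows), with open symbols for arrays 1 to 4 and bars for the limma fit ± SE, red where called. Serpinb1a (0.80) and Serpina3m (0.66) lie to the right with all arrays above 0, and Serpinh1 (-0.42) to the left with array 4 at 0.04.

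In Tip60 knockdown cells, 5 clade B genes were higher and 2 members were lower, Serpine2 and Serpinh1. All 5 rises lay in the chromosome 13 row, and the 3 Serpinb1 genes were each over 2-fold higher on this scale. Those of Serpinb1b and Serpinb1c shrank under other processing, as given with their values. The call was made for 7 of 17 tested members, 41.2%, where 25.6% of 16949 genes were called (15.3% higher, 10.3% lower), and 8 members had an unadjusted p under 0.05. The median log2 fold change was 0.17 over the 17 members and 0.01 over all genes.

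Serpinb1b, at -3.17, -3.73 and -3.98 in Tip60 knockdown replicates 1, 2 and 4, against -5.41, -4.87, -4.89 and -4.92 in EGFP replicates 1 to 4, was higher by 1.40 ± 0.21 (SE, log2; 2.63-fold, adjusted p = 0.0034). The groups do not overlap, as in 36.1% of genes tested, and the left-out Tip60 replicate 3 lay at -4.09. Serpinb1c lay at -2.40, -2.74 and -2.75 in Tip60 knockdown, against -3.86, -3.91, -3.91 and -3.83 in EGFP RNA (1.25 ± 0.09, 2.37-fold, adjusted p = 0.000116). The EGFP arrays were tightly grouped and Tip60 replicate 1 was the highest array. With normexp and quantile normalization the log2 fold changes were 0.50 for Serpinb1b and 0.67 for Serpinb1c, and with series matrix values 0.53 and 0.72, all still called (adjusted p up to 0.0275). The second Serpinb1c probe, lit on 1 of 4 Tip60 knockdown arrays and 0 of 4 EGFP arrays, could not be tested. Nor could the second Serpinb1b probe, lit on 2 of 4 Tip60 knockdown arrays and 0 of 4 EGFP arrays. Serpinb1a lay at 0.99, 0.95 and 1.08 in Tip60 knockdown, against -0.12, -0.18, -0.21 and -0.18 in EGFP RNA (1.18 ± 0.05, 2.26-fold, adjusted p = 9.7e-06). Here the gap between the groups was far wider than the spread within either.

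The smaller rises were less firm. Serpinb6b lay at -4.47, -4.43 and -4.05 in Tip60 knockdown, against -4.96, -4.98, -4.63 and -5.29 in EGFP RNA, where 3 of 4 arrays were well above background (0.65 ± 0.17, 1.56-fold, adjusted p = 0.0309). The groups are apart by less than the spread among EGFP arrays. Its call ended in 12 of 19 alternatives. These include leaving out Tip60 replicate 2 or 4 or EGFP replicate 1, 2 or 4 (0.51 to 0.70, adjusted p from 0.0533 to 0.0984), quantile normalization (0.32, adjusted p = 0.216), normexp with quantile normalization (0.10, adjusted p = 0.394) and series matrix values (0.11, adjusted p = 0.420). Serpinb6c lay at -0.38, -0.34 and -0.33 in Tip60 knockdown, against -0.59, -0.55, -0.62 and -0.70 in EGFP RNA (0.26 ± 0.05, 1.20-fold, adjusted p = 0.0121), a narrow but complete separation. Serpina3m, not called here, lay at -3.13, -2.62 and -2.43 in Tip60 knockdown, against -3.19, -3.93, -3.19 and -4.09 in EGFP RNA (0.87 ± 0.28, adjusted p = 0.0610). Its spread followed the slide: on both slides Tip60 knockdown lay above EGFP, by 0.66 on slide 2 and 0.88 on slide 3.

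Among the falls, Serpinh1 lay at 3.02, 3.04 and 2.95 in Tip60 knockdown, against 3.19, 3.34, 3.21 and 3.33 in EGFP RNA (-0.26 ± 0.06, adjusted p = 0.0182). The groups do not overlap, and replicate 3 at 2.98 lay with the other Tip60 arrays. The call ended without Tip60 replicate 1 or 4 (-0.27 and -0.24, adjusted p = 0.0503 and 0.0681), with normexp and quantile normalization (-0.24, adjusted p = 0.0893) and with series matrix values (-0.26, adjusted p = 0.0758). Serpine2 lay at -2.44, -2.60 and -2.51 in Tip60 knockdown, against -2.27, -2.15, -2.27 and -1.91 in EGFP RNA (-0.37 ± 0.10, adjusted p = 0.0349). It was lower without overlap, and lost its call without any 1 of the Tip60 replicates or EGFP replicate 2 (-0.41 to -0.32, adjusted p from 0.0586 to 0.105).

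**Figure D3:**
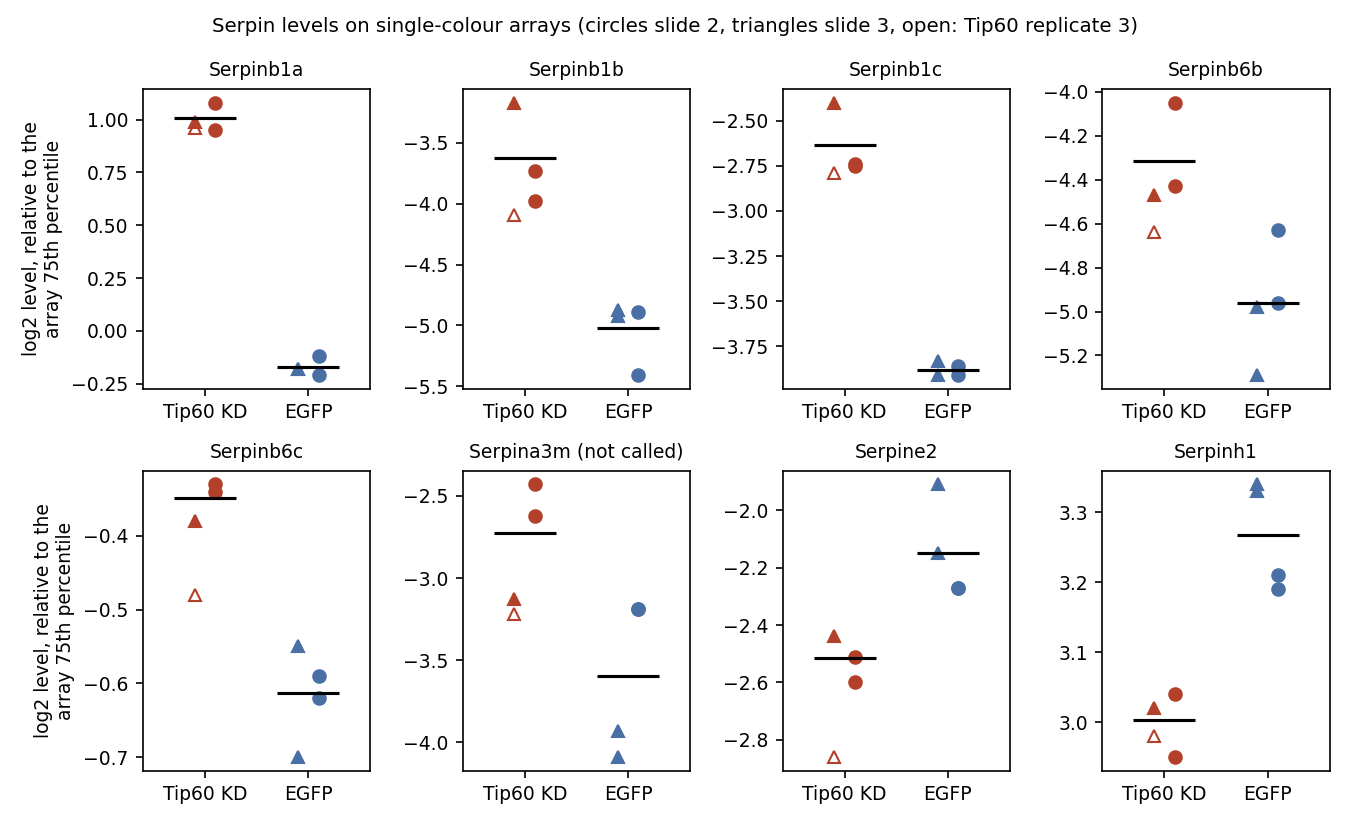
Log2 level relative to the array's 75th percentile (y axis) in Tip60 knockdown (red, left) and EGFP (blue, right) RNA for the 7 called members and Serpina3m, with bars at group means, circles for slide 2, triangles for slide 3 and an open symbol for Tip60 replicate 3, which entered no mean. Serpinb1a separates most clearly (0.95 to 1.08 against -0.21 to -0.12), and Serpinh1 and Serpine2 are lower in Tip60 knockdown.

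Each slide held arrays of both groups, slide 2 Tip60 replicates 2 and 4 with EGFP 1 and 3, slide 3 Tip60 replicate 1 with EGFP 2 and 4. With slide as a block all 7 calls held, Serpina3m was called as well (0.75, adjusted p = 0.0012), and 28.4% of all genes were called. Within slides Serpina3m and the 3 Serpinb1 genes were called on each, and Serpinb9 on slide 3 alone (1.29, against -0.02 on slide 2). The values were 1.18 and 1.17 for Serpinb1a, 1.29 and 1.72 for Serpinb1b and 1.14 and 1.47 for Serpinb1c on slides 2 and 3. Serpinb6b (0.55 and 0.66), Serpinb6c (0.27 and 0.24), Serpine2 (-0.28 and -0.41) and Serpinh1 (-0.21 and -0.32) kept their sign on both slides without passing the test on either (adjusted p from 0.0787 to 0.304). The slide 3 fit has 1 Tip60 array, assumed to vary like the others.

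The remaining members tested were not called in Tip60 knockdown. Serpinb9, which shields cells from granzyme B, gave 0.56 ± 0.32 (adjusted p = 0.246), Serpinb5 0.13, Serpinb6a 0.13, Serpinb3c 0.17 and Serpinc1 0.21. Serpinf1 (-0.07), Serping1 (0.00) and Serpini1 (-0.03) lay near 0. Without EGFP replicate 3, Serpina3m (1.01, adjusted p = 0.0479) and Serpinb9 (0.83, adjusted p = 0.0280) were called as well, and without Tip60 replicate 4 Serpinc1 was (0.35, adjusted p = 0.04995).

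The effects of the knockdowns were set against each other for the 16 members with the same probe in both fits. Serpinb1c passed the test of the difference, its p400 effect being lower by 0.82 ± 0.12 (SE, log2; 95% interval -1.11 to -0.54, adjusted p = 0.0326), which is 1 of 16 members (6.25%), where 4.16% of 16425 genes passed. In alternatives added after the values were seen, it missed the threshold with Tip60 arrays quantile normalized (-0.65, adjusted p = 0.0528), with normexp as well (-0.24, adjusted p = 0.263) and with series matrix values on both sides (-0.19, adjusted p = 0.272), so the difference depends on how the single-colour arrays were processed. Serpinb1b differed by -1.02 (interval -1.58 to -0.47, adjusted p = 0.0630, and -0.07 with series matrix values) and Serpinb1a by -0.38 (interval -0.63 to -0.12, adjusted p = 0.0967), without passing. For Serpinh1 the difference was -0.16 (interval -0.44 to 0.13) and for Serpina3m -0.22 (interval -0.93 to 0.50), so a sizeable difference either way is not excluded by these intervals for Serpina3m. Serpine2, lower in Tip60 knockdown and of mixed sign in p400 knockdown, differed by 0.51 (interval 0.08 to 0.93, adjusted p = 0.150). The p400 effect comes from ratios within 2-colour arrays and the Tip60 effect from levels on single-colour arrays. Background was also treated unlike, with normexp (offset 50) for p400 and the processed signal without that offset for Tip60. Platform, background treatment and knockdown therefore cannot be told apart in the differences reported.

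**Figure D4:**
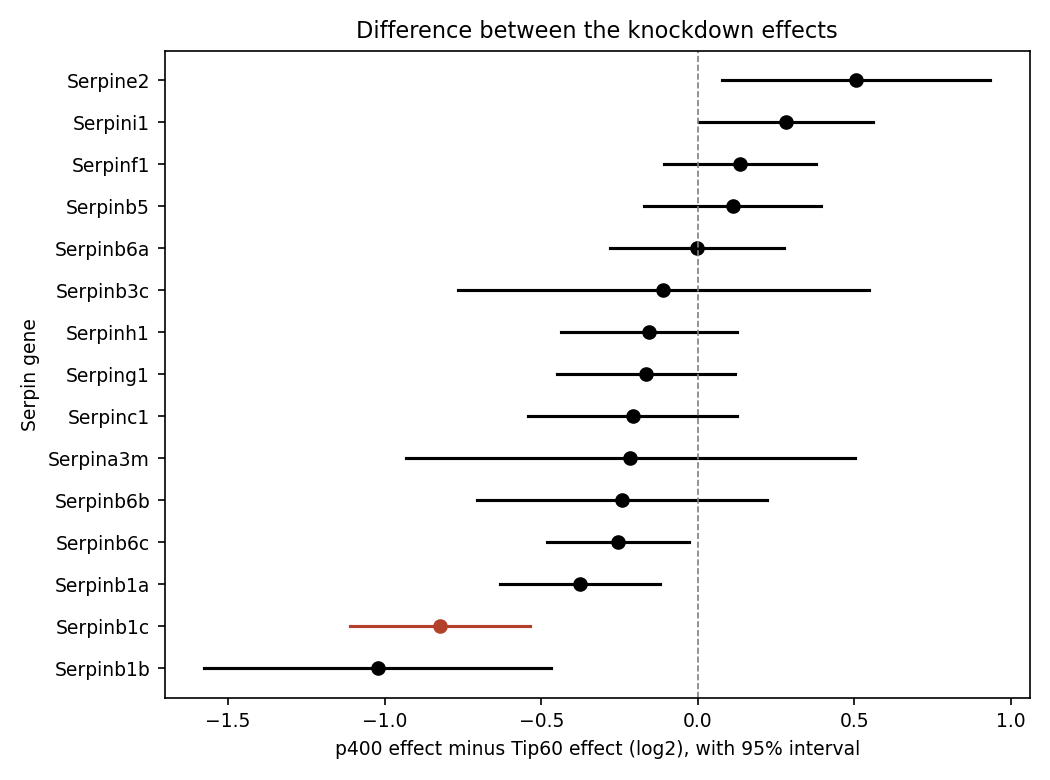
p400 effect minus Tip60 effect (x axis, log2, points with 95% intervals) for the Serpin genes reported here that were tested in both with the same probe. Serpinb1c (-0.82, red) passed the test with this processing, though not with quantile normalized Tip60 arrays, Serpinb1b (-1.02) has a wider interval, and Serpinb6a lies at 0.

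By clade, B held 9 tested genes in each fit, of 24 on the array, with 5 higher and 0 lower in p400 knockdown and 5 higher and 0 lower in Tip60 knockdown, where 20.1% and 15.3% of all genes tested were higher. Clade A, with 20 names, had 3 tested in p400 knockdown (1 higher) and 1 in Tip60 knockdown (0 called). Of clade E, Serpine2 was lower in Tip60 knockdown and not called in p400 knockdown, while clade H is Serpinh1 alone. Clades C, F, G and I had none called in either, and clade D (Serpind1) was not tested.

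The 3 largest chromosome clusters, defined by gaps of at most 500 kb, hold 43 of the 54 names. The chromosome 13 cluster (chr13:32208400-33341564, mm7) has 12 clade B genes and 17 probes, with 7 genes tested in each fit. Of these, 4 were higher in p400 knockdown and 5 in Tip60 knockdown, where 20.1% and 15.3% of all genes tested were higher. The 4 genes called in p400 knockdown are Serpinb1a, Serpinb1c, Serpinb6b and Serpinb1b, which lie at the low-coordinate end, while Serpinb9e, Serpinb6c and Serpinb6a further along were tested and not called. Serpinb6c joins them in Tip60 knockdown. The chromosome 1 cluster (chr1:106781864-107508191) has 12 clade B genes and 18 probes but 2 tested genes, Serpinb5 and Serpinb3c. The chromosome 12 cluster (chr12:101109198-101908089) has 19 clade A genes and 24 probes, of which Serpina3m was called once.

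Genes that are not serpins lie among and beside them. Within the chromosome 13 cluster 1 other gene was on the array, RP23-3N21.1 (chr13:33088797-33088856, role not annotated in the files), at 0.08 in p400 knockdown (not called) and 0.39 in Tip60 knockdown (adjusted p = 0.0034). Of 6 other genes on the array within the chromosome 12 cluster, 3 were tested in p400 knockdown and 1 in Tip60 knockdown, with 0 called, and the single other gene within the chromosome 1 cluster was tested in p400 knockdown only and not called. In the 500 kb outside the chromosome 13 cluster, a window chosen after the values were seen, 2 of 11 genes were higher and 1 lower in p400 knockdown, and 2 of 10 higher and 0 lower in Tip60 knockdown. Over all genes tested, 20.1% were higher and 15% lower in p400 knockdown, and 15.3% and 10.3% in Tip60 knockdown. The shares of these neighbours that were higher are near those of the background. Wrnip1, a helicase-interacting ATPase gene next to Serpinb1a with a probe from position 32187783, was called in neither (0.05 and -0.03). Beyond the far end, 1110046J04Rik was called in neither (-0.22 and -0.25).

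**Figure D5:**
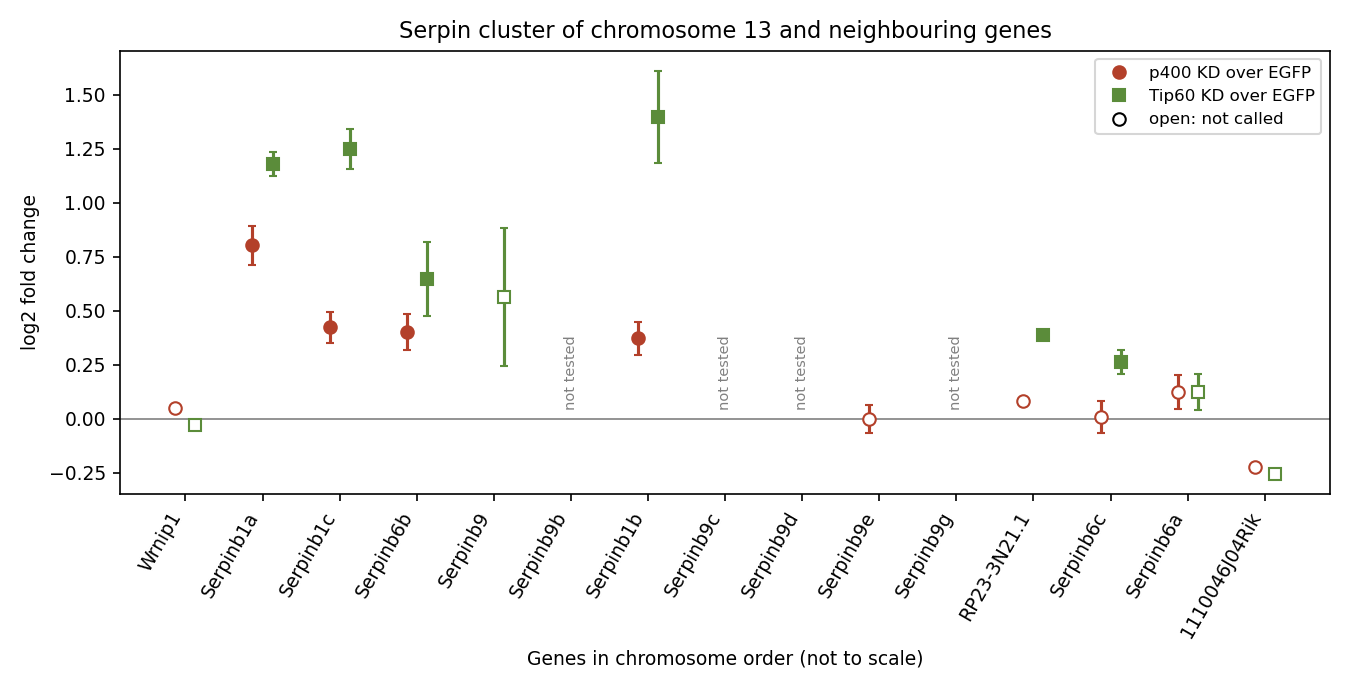
Log2 fold change (y axis) of p400 knockdown (circles) and Tip60 knockdown (squares) over EGFP for the genes of the chromosome 13 cluster in chromosome order, with the nearest tested gene on each side and RP23-3N21.1; bars on Serpin genes are SE, open symbols were not called. The called p400 rises (0.37 to 0.80) lie between Serpinb1a and Serpinb1b, and the nearest outside genes lie near or below 0.

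Every count of a gene list that follows stands against the shares over all genes tested, 20.1% higher and 15% lower in p400 knockdown and 15.3% higher and 10.3% lower in Tip60 knockdown. Proteases that serpins restrain moved in both directions. Of 31 tested in p400 knockdown 7 were higher and 4 lower, and of 22 in Tip60 knockdown 6 were higher and 2 lower, the called share in p400 knockdown (11 of 31) being close to the 35.2% over all genes. In each knockdown 2 were tested only because they were lit in knockdown RNA, so they could hardly enter as falls. Without them 6 of 29 were higher and 4 lower in p400 knockdown, and 6 of 20 higher and 2 lower in Tip60 knockdown. In p400 knockdown the largest rises were Ctsh, a lysosomal aminopeptidase-like cathepsin (1.29, adjusted p = 0.000582), and Casp8, the initiator caspase (1.09, adjusted p = 0.0014). F2, the thrombin precursor (-0.76, adjusted p = 0.0047), and Proc, the anticoagulant protein C (-0.68, adjusted p = 0.0027), were lowest. In Tip60 knockdown C1ra, which opens the classical complement pathway (1.45, adjusted p = 0.000188), and Ctsh (0.86, adjusted p = 2.08e-05) were highest, and Proc (-0.54) and St14, a membrane protease (-0.30, adjusted p = 0.0011 and 0.0088), lowest. The lists of this section, like the members, were set with earlier results of these data known.

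Of the other protease inhibitors, 11 of 30 were higher and 3 lower in p400 knockdown, and 13 of 27 higher and 1 lower in Tip60 knockdown. Of these, 5 and 2 were tested only because they were lit in knockdown RNA, so they could hardly enter as falls. Without them the counts were 7 of 25 higher and 3 lower in p400 knockdown and 11 of 25 higher and 1 lower in Tip60 knockdown. Timp3, a metalloprotease inhibitor of the matrix (0.99, adjusted p = 0.0018), and Cstdc6, a stefin-type cysteine protease inhibitor gene, rose most in p400 knockdown. Cstdc6 was not well above background in the EGFP RNA of any of the 4 2-colour arrays, so its rise there is at least 1.98-fold (adjusted p = 0.0075), and Timp1 (-0.61) and Pebp1, a phosphatidylethanolamine-binding protein (-0.50), fell. In Tip60 knockdown Cst7, a cystatin of immune cells (at least 4.55-fold, adjusted p = 4.06e-06), and Slpi, the secretory leukocyte protease inhibitor (at least 1.98-fold, adjusted p = 0.00043), were likewise unlit in EGFP RNA, and Pebp1 fell (-0.37). The count includes Bst1 (1.29 in Tip60 knockdown), an ADP-ribosyl cyclase that was put in the list and is no protease inhibitor. Such bounds set the mean of the knockdown arrays against, per EGFP array, the higher of the probe's own signal and the lowest signal that was well above background; on 2-colour arrays the dye swap balances the dyes between the groups.

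Cofactors and clearance receptors of serpins gave 6 of 20 higher and 3 lower in p400 knockdown, and 5 of 19 higher and 3 lower in Tip60 knockdown. Hs3st1, which makes the heparan sulphate that antithrombin binds, was higher in both (1.01 and 0.89), as was Sdc2, a heparan sulphate proteoglycan (0.93 and 0.78). In p400 knockdown Gpc3 (-0.75) and the lipoprotein receptor Vldlr (-0.69) fell most, and in Tip60 knockdown Gpc1 (-0.36) and Ndst1 (-0.33).

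Around Serpinh1, genes of collagen folding and collagen itself did not move as a block. In p400 knockdown 9 of 31 were higher and 4 lower, and in Tip60 knockdown 4 of 30 were higher and 3 lower. P4ha2, a prolyl hydroxylase subunit, rose most in both (1.82 and 1.49, adjusted p = 0.000401 and 0.000147), followed by the collagen chain genes Col4a1 in p400 knockdown (0.83) and Col5a1 in Tip60 knockdown (0.46). Kdelr3, a receptor that returns chaperones to the endoplasmic reticulum, fell in both (-0.82 and -0.29), as did Fkbp10, a peptidyl-prolyl isomerase that works with Serpinh1 (-0.76 and -0.27). Cytosolic chaperones, named with Serpinh1 because its protein is also called Hsp47, gave 6 of 19 higher and 2 lower in p400 knockdown and 2 of 19 higher and 0 lower in Tip60 knockdown. Hspa1a rose by 4.10 and 2.44 (adjusted p = 0.000114 and 1.58e-06) and Hspa2 by 0.80 and 0.44 in p400 and Tip60 knockdown, while Hspb8 (-0.66) and Hsp90aa1 (-0.52) were lower in p400 knockdown.

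Markers of other cell types moved in the same samples. Endoderm markers, 12 in all, had 7 of 10 tested higher in p400 knockdown and 6 of 9 in Tip60 knockdown, 0 lower in either; their summed level ran from 4.07 to 4.38 in Tip60 knockdown, against 3.56 to 3.86 in EGFP RNA, and Ttr and Apoa1 were lit nowhere. In each knockdown 1 endoderm marker was tested only because it was lit in knockdown RNA. Without it 6 of 9 were higher in p400 knockdown and 5 of 8 in Tip60 knockdown. Gata6 (1.26) and Sox17 (1.01) rose most in p400 knockdown. In Tip60 knockdown Sox17 gave 1.18 and Afp, unlit in EGFP RNA, at least 1.84-fold. The 2-cell-like markers were all higher, 6 of 6 in each, with summed levels of 8.06 to 8.15 in Tip60 knockdown, against 5.44 to 5.60 in EGFP RNA; Zfp352 (4.52 and 3.53), Zscan4c in p400 knockdown (4.37) and Usp17la in Tip60 knockdown (3.27) rose most. Trophoblast markers had 6 of 10 higher in p400 knockdown and 3 of 10 in Tip60 knockdown, 0 lower (6.39 to 6.66 in Tip60 knockdown, against 6.27 to 6.46 in EGFP RNA), led by Krt18 and Krt8 (both 0.90) in p400 knockdown and Plac1 (1.17) and Eomes (0.47) in Tip60 knockdown. Without the 2 trophoblast markers tested only through p400 knockdown RNA, 5 of 8 were higher in p400 knockdown. Fibroblast markers had 6 of 9 higher and 1 lower (Vim, -0.37) in p400 knockdown and 5 of 9 higher and 0 lower in Tip60 knockdown (4.46 to 4.64, against 4.23 to 4.51 in EGFP RNA), led by Thy1 (1.43 and 1.25) with Col1a1 (0.80) and Pdgfra (0.60), while Lum was lit nowhere and Dcn on 2 Tip60 knockdown arrays alone. Macrophage markers had 0 of 4 and 0 of 2 called, with Ptprc lit nowhere and Adgre1 on 1 Tip60 knockdown array alone. Stem cell markers had 0 of 8 higher and 3 lower in p400 knockdown (Dppa5a, -0.39, and Esrrb, -0.25, most) and 1 higher (Tdgf1, 0.38) and 1 lower (Sox2) in Tip60 knockdown. In the 2-colour arrays the summed levels, in log2 intensity, were 13.17 to 13.54 in p400 knockdown against 12.35 to 12.84 in EGFP RNA for endoderm, 14.77 to 14.92 against 13.94 to 14.12 for trophoblast, and 18.09 to 19.14 against 14.04 to 15.03 for 2-cell-like markers. On the same arrays the summed levels of fibroblast markers overlapped, at 13.74 to 13.96 in p400 knockdown against 13.79 to 13.94 in EGFP RNA. Those of stem cell markers (18.19 to 18.82 against 18.35 to 18.74) and macrophage markers (10.28 to 10.55 against 10.35 to 10.42) overlapped as well. The part of these cell types in the Serpin changes was not tested.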

How the data were processed

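The authors read the scans with Agilent Feature Extraction 9.5.1.1 per the file headers. The deposited spot intensity columns are mean signal, median background and a processed signal (background-subtracted, detrended and, with 2 colours, dye-normalized). The deposited LogRatio is a log10 ratio of red over green, the deposited 0 or 1 flags say whether a spot was well above background, and the deposited series matrix gives log2 values, whose steps are not given in the sources used here (medians from 0 to 0.01 for ratios of knockdown over EGFP, from 7.26 to 7.27 for single-colour arrays). From these, 2-colour arrays were corrected with normexp (offset 50), normalized by loess within arrays and fitted with a dye term. On single-colour arrays each array's 75th percentile was subtracted from its log2 processed signal. limma 3.58.1 in R 4.3.3 gave two-sided moderated tests with Benjamini-Hochberg adjustment over all genes tested. Control spots (1639) and outlier flags were left out and spots of a probe averaged. The difference of effects was divided by the root of summed squared standard errors with the smaller degrees of freedom. Steps were tested on simulated data. Members and lists were chosen with earlier results of these data known. Named genes are every tested member except 1 that is not reported here but counts in the totals, called members at 1.5-fold with array values, Serpinh1, the check genes and up to 2 rises and 2 falls per list. Other called members' array values were added later. The number of arrays limits the precision. Alternatives covered normalization, background, filters, probes, slides and left-out replicates.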

Additional observations from a re-analysis of the deposited data

Results flagged for a closer look

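Several arrays stood apart from the others of their group by Dixon's criterion, in 6 of 54 groups of values (11.1%), where chance alone gives about 1 in 20. Serpinb1b had a p400 over EGFP ratio of 0.16 on array 4 (others 0.42 to 0.46) and a level of -5.41 in EGFP replicate 1 (others -4.92 to -4.87). Serpinb1c was at -2.40 in Tip60 replicate 1 (others -2.79 to -2.74). The p400 ratio was -0.21 for Serpinb6c on array 1 (others 0.07 to 0.11) and -0.25 for Serping1 on array 2 (others -0.15 to -0.13). Serpini1 was at 1.11 in Tip60 replicate 3 (others -0.84 to -0.52), which entered no comparison.

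The p400 and Tip60 effects on Serpinb1c differed by -0.82 in the test of the difference itself, a call that ended with other normalizations of the Tip60 arrays (-0.65 to -0.19). Tip60 replicate 3, left out by the submitters, had levels above all EGFP arrays for Serpinb1a (0.96 against -0.21 to -0.12), Serpinb1c (-2.79 against -3.91 to -3.83) and Serpinb6c (-0.48 against -0.70 to -0.55). It lay within the EGFP range for Serpinb6b (-4.64 against -5.29 to -4.63) and for Serpina3m (-3.22 against -4.09 to -3.19).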

How the results depend on the processing

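No alternative reversed a Serpin call within either knockdown. In p400 knockdown 4 genes (4 higher, 0 lower; 13% of all genes) were called with arrays scaled to a common spread, which ended the calls of Serpinb1a, Serpinb5 and Serpinh1, and 2 to 7 with 1 array left out. With arrays centred on medians 6 were higher and 2 lower, against 6 and 1, and the median of all genes moved to -0.107, against 0.008. The p400 member median was 0.018 with no filter on dim probes, where all 54 names enter, and 0.053 to 0.123 with 1 array left out. In Tip60 knockdown 4 were called within slide 2 (11.1% of all genes; the 3 Serpinb1 genes and Serpina3m), 5 to 9 with 1 array left out, and 6 higher and 0 lower with no filter on dim probes, against 5 and 2. Without that filter Serpinb6b, Serpine2 and Serpinh1 lost their calls, and the rises included members too dim to be tested otherwise. The Tip60 member median was 0.038 with normexp and quantile normalization, 0.028 with series matrix values and 0.131 to 0.213 with 1 array left out. Whether replicate numbers pair Tip60 and EGFP samples is not settled. Correlations of deviations were -0.29, -0.38 and -0.12. Samples of the same number were never on 1 slide, however, so pairing and slide cannot be told apart in them. With the replicate block 4 were called (11.2% of all genes), the 3 Serpinb1 genes and Serpinb9, which was not called without it. The calls of Serpinb6b, Serpinb6c, Serpine2 and Serpinh1 ended there. The difference of effects was called for 3 genes with Welch-Satterthwaite degrees of freedom and 5 with p400 arrays centred on medians, and for 0 (Serpinb1c lost) with Tip60 arrays quantile normalized, with or without normexp. With series matrix values on both sides, the same count of 1 was Serpinb6b, at 0.497 with the opposite sign to the -0.242 reported, and not Serpinb1c. These last 3 alternatives were chosen after seeing the data. Apart from fewer samples or more genes tested, the causes were not tested. Probes not well above background have only a bound.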
